A study of Mus musculus with 3 samples.

Results

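Fat-cell differentiation and lipid storage were followed here through 9 genes: the transcription factors Pparg, Cebpa, Zfp423 and Klf15, the fatty acid supply genes Lpl and Cd36, the fatty acid carrier Fabp4, the lipid droplet coat gene Plin2, and the hormone gene Adipoq. They were a fixed set of names, chosen with earlier results of these data known and matched by Entrez gene ID to the deposited tables. They make up 9 of the genes of a transcriptome in which 16621 genes had an estimate above 0 in at least 1 library. Of the 9, 8 were listed in the tables and Adipoq was listed in none, so that it was taken as 0. Poly(A) RNA came from tail tendon derived stem cells, clonogenic cells isolated from tendon and expanded in culture, of C57BL/6 mice aged 10 weeks. The DF508 group (2 libraries) carried the ΔF508 mutation of Cftr, the gene of an epithelial anion channel, and the WT group (1 library) was wild type. Cells of both groups were untreated, grown in low glucose medium with fetal bovine serum, and collected at confluence at passage 4. The source of each DF508 library, 1 animal or culture or several, is not in the labels, so each p-value reflects just how far these libraries lie apart, and that distance may be technical. The use of strand in counting is not given, so overlapping and antisense transcripts cannot be told apart from the genes named.

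Tendon stem cells are multipotent and can form fat cells when given adipogenic inducers. In that programme Zfp423 marks committed preadipocytes, early factors such as Cebpb and Cebpd induce the nuclear receptor Pparg and its partner Cebpa, and these in turn switch on genes of fatty acid uptake, lipid droplets and secreted hormones. Several of the same lipid genes, among them Cd36, Lpl, Fabp4 and Plin2, are also used by macrophages.

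The regulators differ in the DNA before their transcription starts, which is shown because Pparg and Cebpa are the centre of the programme and Adipoq, one of its late products, had no counts here. RefSeq promoter windows of build GRCm38.p6 were found for 7 of the 9 genes, with 10 windows in all; Fabp4 and Lpl had no entry. The 250 bases before each start are given 5′ to 3′ in the direction of transcription. Capitals mark matches, on either strand, to the C/EBP core TTNNGCAA, the GC box GGGCGG, the CCAAT box CCAAT and the TATA box TATAAA. Of 3 Pparg windows the first and the last are printed; they lie on the plus strand of chromosome 6 at chr6:115360894-115361143 (upstream start) and chr6:115421816-115422065 (downstream start, which gives the fat-cell isoform Pparg2), the Cebpa window on the plus strand at chr7:35119043-35119292, and the Adipoq window on the plus strand at chr16:23146286-23146535.
Pparg, upstream start: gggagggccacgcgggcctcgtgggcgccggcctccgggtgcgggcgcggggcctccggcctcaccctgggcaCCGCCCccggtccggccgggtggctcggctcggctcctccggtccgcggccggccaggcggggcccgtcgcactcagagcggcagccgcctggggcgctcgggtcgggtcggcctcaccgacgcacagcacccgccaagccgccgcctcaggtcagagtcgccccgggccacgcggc
Pparg, downstream start: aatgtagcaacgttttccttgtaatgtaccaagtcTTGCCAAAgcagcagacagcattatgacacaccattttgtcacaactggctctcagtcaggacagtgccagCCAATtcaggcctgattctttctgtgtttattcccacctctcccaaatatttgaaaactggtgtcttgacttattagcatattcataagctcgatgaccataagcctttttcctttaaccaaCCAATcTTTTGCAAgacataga
Cebpa: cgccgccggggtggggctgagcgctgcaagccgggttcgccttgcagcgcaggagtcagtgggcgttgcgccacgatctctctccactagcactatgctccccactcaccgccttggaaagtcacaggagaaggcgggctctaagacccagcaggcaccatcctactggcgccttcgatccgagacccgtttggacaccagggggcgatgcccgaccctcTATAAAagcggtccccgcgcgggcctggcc
Adipoq: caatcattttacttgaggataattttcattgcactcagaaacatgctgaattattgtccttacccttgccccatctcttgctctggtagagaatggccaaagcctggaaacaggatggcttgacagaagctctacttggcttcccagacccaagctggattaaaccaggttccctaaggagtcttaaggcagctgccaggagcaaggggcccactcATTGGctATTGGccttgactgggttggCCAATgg

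The upstream Pparg window was 82.4% G and C, with 1 GC box and no C/EBP core. The Pparg window between them, at chr6:115362099-115362348 and not printed, was 63.6% G and C, with 2 GC boxes, 1 CCAAT box and a TATA box beginning 29 bases before the start. The downstream Pparg window was 40.8% G and C, with 2 C/EBP cores and 2 CCAAT boxes. The Cebpa window, 66.4% G and C, held a TATA box beginning 30 bases before the start, and the Adipoq window, 48.8% G and C, held 3 CCAAT boxes. Of 32851 RefSeq windows of the same length, 9.6% held the C/EBP core, 32.7% the GC box, 33.8% the CCAAT box and 12.4% the TATA box, with a median of 52.4% G and C. Such matches describe the letters of these windows and do not show binding. The tables give 1 value per gene, so which Pparg start the reads came from was not measured.

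The libraries were close in depth, with 5241826 to 5298326 counts each. Where a gene had 0 counts, up to 3 are still possible, or 0.572 CPM (counts scaled to a library total of 1000000) in each DF508 library and 0.566 CPM in WT; like the intervals below, this covers counting error only. The tendon markers were all present. Their summed level was 41800 and 43900 CPM in the DF508 libraries and 40800 CPM in WT, led by Thbs4, Col1a1 and Col1a2, while the tendon transcription factor Scx had 2.10 and 2.48 CPM in DF508 and 3.02 CPM in WT. Of the 17 macrophage markers all were listed in both DF508 libraries and 16 in WT, with summed levels of 165 and 759 CPM in DF508 replicates 1 and 2 and 105 CPM in WT. DF508 replicate 2 stood apart in these markers, and the values of the 9 genes are therefore given for each DF508 library alone as well. Of 10 endothelial markers Pecam1, Cdh5, Tie1, Emcn and Cldn5 had 0 counts in every library, and the summed level was 16.2 and 15.4 CPM in DF508 and 19.3 CPM in WT. Most of that sum was Tek, with 13.2 and 12.4 CPM in DF508 and 14.5 CPM in WT. Egfl7 followed, with 2.86 and 2.29 CPM in DF508 and 4.15 CPM in WT. Of 8 skeletal muscle markers 2 were at 0 in every library (7.45 and 6.38 CPM summed in DF508, 4.24 CPM in WT), and of 6 epithelial markers 4 were. Cftr itself had 1 count in each DF508 library and 15 counts in WT. The fitted log2 fold change of Cftr, -3.78 ± 1.1 (SE), did not pass (edgeR quasi-likelihood test, adjusted p = 0.185), and the cause of the difference was not tested. ΔF508 removes a single codon in frame, which counts per gene do not show, so these counts do not check the labels.

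All 3 libraries had counts for the regulators of fat-cell formation and none for several products of mature fat cells, Adipoq among them. In length-scaled levels (FPKM, fragments per kilobase of transcript, scaled to library size) Plin2, Lpl and Cebpa stood highest, Fabp4 and Pparg in the middle, and Klf15, Zfp423 and Cd36 low. Adipoq, which encodes the fat-cell hormone adiponectin, had 0 counts in DF508 replicate 1, DF508 replicate 2 and WT. Of 10 mature adipocyte markers Plin1, Cidec, Retn, Lep and Ucp1 also had 0 counts in every library. The hormone-sensitive lipase gene Lipe carried nearly all of the summed level of that list, with 7.44 and 9.72 CPM in DF508 and 7.93 CPM in WT, out of 7.63 and 10.5 CPM in DF508 and 8.87 CPM in WT. In bulk RNA fewer cells of a type and less RNA per cell cannot be told apart, and this holds for every level given here.

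Comparing DF508 with WT asked whether mutant tendon cells differ in this programme. The regulators Pparg, Zfp423 and Cebpa, and the fatty acid transporter Cd36, were above WT in both DF508 libraries, and Plin2, Fabp4 and Klf15 were below WT in both. Lpl was above WT in one DF508 library and below it in the other. None of these differences passed the test over all genes. Of the 8 listed genes, all of which were kept by the filter on low counts, 0 rose and 0 fell in edgeR's quasi-likelihood test with Benjamini-Hochberg adjustment over 12888 genes, with adjusted p-values of 0.242 to 0.984. In the same fit 0.489% of all genes tested rose and 0.9% fell. At an unadjusted p under 0.05 there were 4 of the 8 (Pparg, Zfp423, Plin2 and Cd36), beside 1538 of all genes tested, or 11.9%. DESeq2's Wald test called 0 of the 5 that it gave an adjusted p (Fabp4, Cd36 and Klf15 had none), with 0 of the 8 at an unadjusted p under 0.05. With limma-voom 0 of the 8 were called and 3 had an unadjusted p under 0.05. Both DF508 libraries were above WT for 4 of the 8 genes and for 43.3% of all genes tested, and both were below for 3 of the 8 and for 29.6% of all. Those counts are near the background over all genes. The median log2 fold change of the 8 was 0.09, beside 0.01 over all genes tested, and by library it was -0.09 in DF508 replicate 1 and 0.25 in DF508 replicate 2 over WT.

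**Figure D1:**
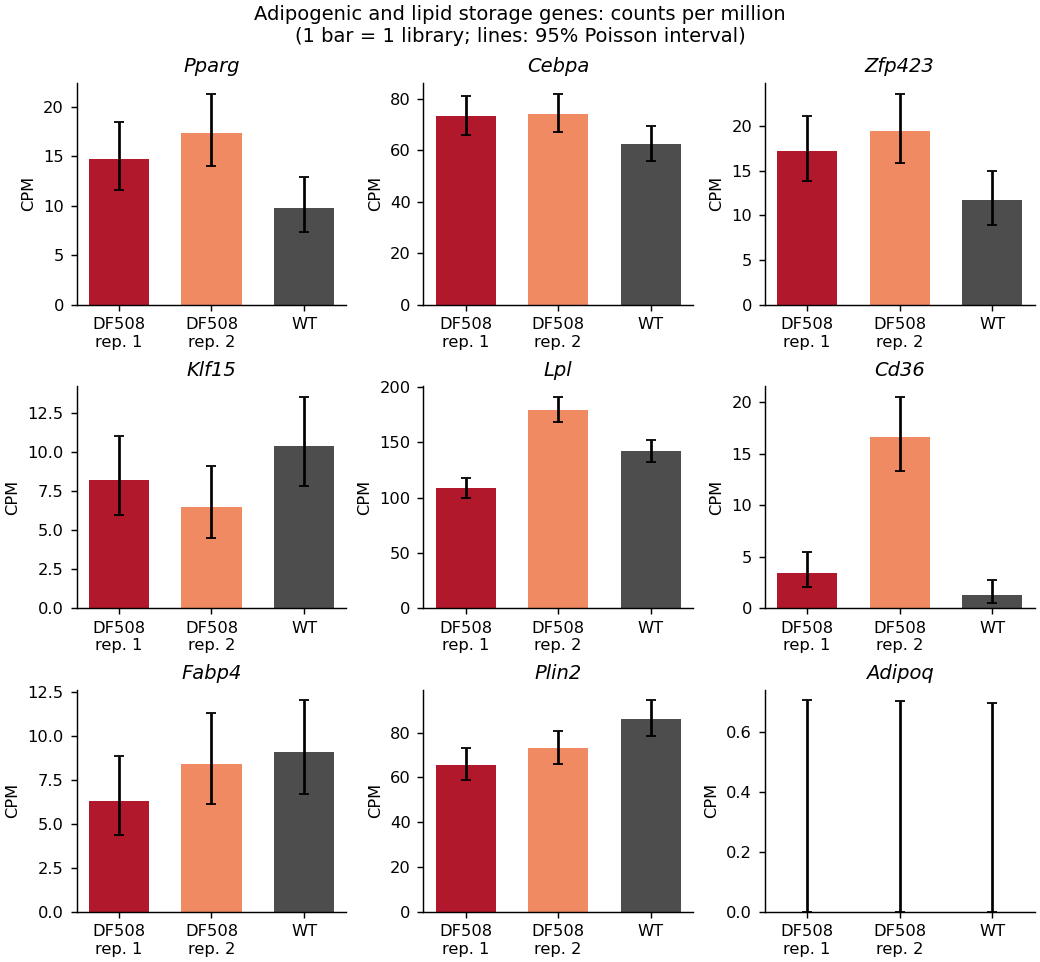
CPM (y axis, linear, from 0, its own scale in each panel) for the 9 genes in DF508 replicate 1, DF508 replicate 2 and WT. Each bar is 1 library and each line its exact 95% Poisson interval; Adipoq has no bar because it had 0 counts in every library. Cd36 stands at 16.6 CPM in DF508 replicate 2 alone, and Pparg and Zfp423 stand above WT in both DF508 libraries.

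Pparg (gene ID 19016), the nuclear receptor at the head of fat-cell differentiation, had 77 counts in DF508 replicate 1, 91 in DF508 replicate 2 and 52 in WT. These were 14.7 and 17.3 CPM in DF508 and 9.81 CPM in WT, and both DF508 libraries lay above WT. The ratio to WT was 1.5 in replicate 1 (exact 95% interval of the count ratio 1.04 to 2.17) and 1.77 in replicate 2 (1.24 to 2.53). The fitted log2 fold change was 0.66 ± 0.26 (SE), a 1.58-fold difference that did not pass (edgeR quasi-likelihood test, adjusted p = 0.339). In FPKM the level was 8.67 ± 1.02 in DF508 (SD, n = 2) and 5.31 in WT. Pparg stood at percentiles 54.5 and 58.7 of the listed genes in DF508, above the middle, and at 45.6 in WT, below it.

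Cebpa (gene ID 12606), the leucine zipper factor that sustains Pparg expression, was the most abundant of the regulators. It had 384 and 390 counts in DF508 and 331 counts in WT, or 73.3 and 74.3 CPM in DF508 and 62.5 CPM in WT. The DF508 libraries were nearly equal and both above WT, by ratios of 1.17 (1.01 to 1.36) and 1.19 (1.03 to 1.38). At 0.20 ± 0.11 (SE), the log2 fold change did not pass (adjusted p = 0.561). The FPKM of Pparg was 0.288 and 0.335 times that of Cebpa in the DF508 libraries and 0.225 times that of Cebpa in WT.

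Zfp423 (gene ID 94187), a zinc finger factor that commits fibroblasts to the preadipocyte state, followed Pparg. It had 90 and 102.1 estimated counts in DF508 and 62 in WT, or 17.2 and 19.5 CPM in DF508 and 11.7 CPM in WT. WT was the lowest library, with DF508 ratios of 1.47 (1.05 to 2.06) and 1.66 (1.20 to 2.32) and a fitted log2 fold change of 0.60 ± 0.24 (SE) that did not pass (adjusted p = 0.351). Its estimate was not whole in every library, so part of its reads is shared with another gene or copy and the level is uncertain.

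Klf15 (gene ID 66277), a Krüppel-like factor that acts late in adipogenesis and responds to glucocorticoids, went the other way. It had 43 and 34 counts in DF508 and 55 counts in WT, or 8.20 and 6.48 CPM in DF508 and 10.4 CPM in WT. Both DF508 libraries were below WT, but the interval of the ratio in replicate 1 included 1 (0.790, with 0.518 to 1.20), and that in replicate 2 came close to it (0.624, with 0.395 to 0.975). The fitted log2 fold change was -0.54 ± 0.32 (SE), with an adjusted p of 0.572. In FPKM Klf15 and Zfp423 stood beside each other: Klf15 had 3.21 ± 0.53 in DF508 and 4.53 in WT, and Zfp423 had 3.70 ± 0.325 in DF508 and 2.36 in WT (SD, n = 2 in DF508).

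Lpl (gene ID 16956), the lipase that frees fatty acids from lipoprotein triglyceride, split the DF508 libraries. It had 571.6 and 939.1 estimated counts in DF508 replicates 1 and 2 and 751.8 in WT, or 109 and 179 CPM in DF508 and 142 CPM in WT. WT lay between them: the ratio to WT was 0.769 in replicate 1 (0.688 to 0.858) and 1.26 in replicate 2 (1.14 to 1.39). The mean of the DF508 libraries was 144 ± 49.5 CPM (SD, n = 2), and the fitted log2 fold change was -0.02 ± 0.23 (SE, adjusted p = 0.984), a sign that turns to 0.02 when libraries are scaled by their totals alone. Lpl also shares reads with another gene or copy.

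Cd36 (gene ID 12491), a fatty acid translocase of fat cells and a scavenger receptor of macrophages, had the widest span of the 9 genes. It had 18 and 87 counts in DF508 replicates 1 and 2 and 7 counts in WT, or 3.43 and 16.6 CPM in DF508 and 1.32 CPM in WT. Replicate 2 was far above both other libraries, and replicate 1 was above WT. The ratio to WT was 2.60 in replicate 1, with an interval of 1.04 to 7.36, and 12.6 in replicate 2, with an interval of 5.84 to 32.1. The fitted log2 fold change of 2.85 ± 0.96 (SE) did not pass (adjusted p = 0.254), and with DF508 replicate 1 alone the log2 ratio of TMM-scaled CPM + 0.5 was 1.08, a value with no test. The macrophage markers moved with it, with a summed level 1.57 times WT in replicate 1 and 7.2 times WT in replicate 2; their part in the Cd36 level was not tested.

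Fabp4 (gene ID 11770), the cytosolic fatty acid carrier of fat cells and macrophages, had 33 and 44 counts in DF508 and 48 counts in WT. These were 6.30 and 8.39 CPM in DF508 and 9.06 CPM in WT. WT was the highest library, with DF508 ratios of 0.695 (0.432 to 1.11) and 0.926 (0.601 to 1.42), and both intervals included 1. A log2 fold change of -0.35 ± 0.34 (SE) was fitted and did not pass (adjusted p = 0.763).

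Plin2 (gene ID 11520), which coats lipid droplets in most cell types and not only in fat cells, had the highest FPKM of the 9 genes when averaged over the libraries. It had 345 and 384 counts in DF508 and 457 counts in WT, or 65.8 and 73.2 CPM in DF508 and 86.3 CPM in WT. Neither DF508 library reached WT, with ratios of 0.763 (0.662 to 0.879) and 0.849 (0.739 to 0.974). The fitted log2 fold change was -0.36 ± 0.12 (SE) and the adjusted p 0.242, the lowest of the 8. In FPKM Plin2 had 37.0 ± 2.77 and Lpl 35.4 ± 12.1 in DF508 (SD, n = 2), levels that did not differ beyond the spread of Lpl, while in WT Plin2 had 45.9 and Lpl 34.9.

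**Figure D2:**
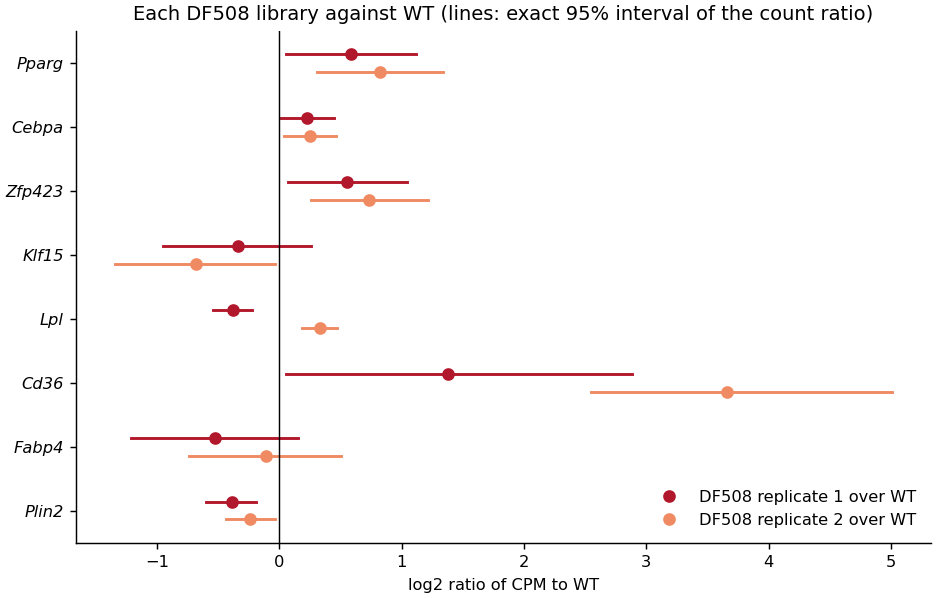
Log2 ratio of CPM in each DF508 library to WT (x axis) for the 8 genes with counts (y axis). Points are single libraries and lines the exact 95% interval of the count ratio, which covers counting error only. Pparg, Cebpa, Zfp423 and Cd36 lie right of 0 in both libraries, Klf15, Fabp4 and Plin2 left of 0 in both, and Lpl on opposite sides.

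The DF508 libraries were also set against each other, with 1 library on each side and therefore no test. Cd36 was 4.83-fold higher in replicate 2 than in replicate 1 (2.88 to 8.53), and Lpl 1.64-fold higher (1.48 to 1.82). These were the 2 of 8 genes at least 1.5-fold higher in replicate 2, a size that 6.64% of all genes tested reached; 0 of the 8 and 4.97% of all were at least 1.5-fold lower. The intervals of the other 6 genes all included 1. Cebpa was closest to equal, at 1.01 (0.879 to 1.17), followed by Plin2 at 1.11 (0.959 to 1.29), Zfp423 at 1.13 (0.844 to 1.52) and Pparg at 1.18 (0.862 to 1.62). Fabp4 stood at 1.33 (0.829 to 2.16) and Klf15 at 0.790 (0.489 to 1.27). The 16 tested macrophage markers were all higher in replicate 2, by 2.58-fold to 5.68-fold with a median of 4.59-fold, against 1.02-fold to 1.76-fold for the 8 tendon markers with a median of 1.07-fold. Cd36 lay within the range of the macrophage markers. Lpl lay below that range and above every tendon marker but Tnmd, since the next highest, Scx, stood at 1.18-fold. Whether macrophages supplied these transcripts was not tested.

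**Figure D3:**
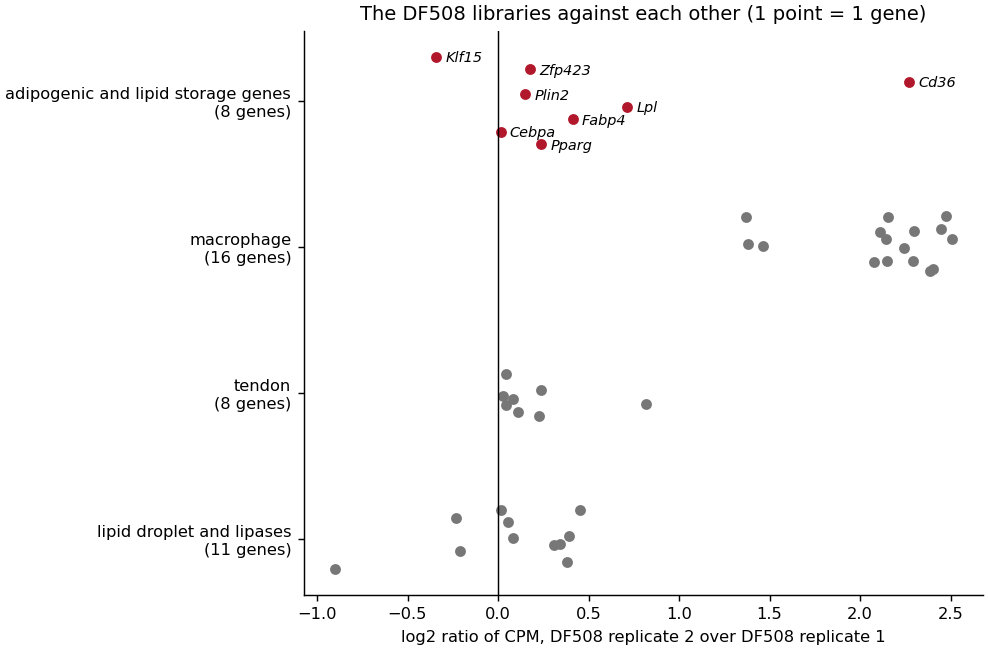
Log2 ratio of CPM in DF508 replicate 2 to that in DF508 replicate 1 (x axis) for 4 gene groups (y axis); each point is 1 tested gene, and points are spread vertically for legibility. The 16 macrophage markers, from 2.58-fold, all lie to the right of the 8 tendon markers, which reach 1.76-fold with Tnmd, and Cd36 lies among the macrophage markers.

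Around these 9 genes the rest of the programme was mostly without called differences. Those genes that passed were the transcription factor genes Cebpd, Klf4, Egr2, Klf2 and Bhlhe40, together with Angptl4, Apln, Dusp1, Sgk1 and F3, which all fell, and the inhibitor gene Dlk1, which rose. Their values follow by role, with the count of each list beside 0.489% of all genes that rose, 0.9% that fell and a median log2 fold change of 0.01 over all genes tested. Some genes stand in more than 1 list. The lists were written with earlier results of these data known. A list count above the share over all genes is therefore not independent evidence about that list.

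Of 22 tested adipogenic activators 0 rose and 3 fell (median log2 fold change -0.06). Cebpd, the early factor upstream of Pparg and Cebpa, had 75.0 and 86.9 CPM in DF508 and 127 CPM in WT and was 1.62-fold lower (adjusted p = 0.0333). Klf4, which promotes Cebpb expression early in differentiation, was also 1.62-fold lower (103 ± 5.06 CPM in DF508, 162 CPM in WT, adjusted p = 0.0213). Egr2, an early-response factor with the same role, was 1.57-fold lower (adjusted p = 0.0453). Serum can induce each of these genes in some cells, and glucocorticoids can induce Cebpd, but neither was tested here. Ebf1, the most abundant activator by FPKM, had 287 and 324 CPM in DF508 and 269 CPM in WT and did not pass (adjusted p = 0.693).

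Of 16 tested adipogenic inhibitors 1 rose and 2 fell (median -0.10, with DF508 replicates 1 and 2 alone -0.05 and -0.18). Dlk1 (gene ID 13386), the preadipocyte protein Pref-1 that holds cells back from differentiation, had 334 and 387 CPM in DF508 and 183 CPM in WT. Both DF508 libraries were far above WT, with ratios of 1.83 (1.69 to 1.98) and 2.11 (1.96 to 2.28), and Dlk1 rose 1.91-fold (log2 fold change 0.93 ± 0.12 SE, adjusted p = 0.0112). Klf2, a repressor of Pparg transcription, fell 1.66-fold (65 ± 2.38 CPM in DF508, 105 CPM in WT, adjusted p = 0.0202). Bhlhe40, a repressor that is also hypoxia-induced, fell 1.64-fold (adjusted p = 0.0198). Hes1, the Notch-responsive repressor, had 86.4 ± 14.1 CPM in DF508 and 120 CPM in WT, and Ctnnb1, the Wnt effector beta-catenin, 394 ± 31.4 CPM in DF508 and 426 CPM in WT; neither passed (adjusted p = 0.160 and 0.638).

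In the lipid droplet and lipase list 0 of 11 tested genes rose or fell (median -0.14). Bscl2, which shapes nascent droplets, had 53.2 ± 0.503 CPM in DF508 and 59.5 CPM in WT. Plin3, another droplet coat, had 51.9 ± 2.22 CPM in DF508 and 59.7 CPM in WT, and shares reads. Abhd5, the activator of triglyceride lipase, had 32.2 ± 0.787 CPM in DF508 and 34.5 CPM in WT.

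Of 16 tested genes of fatty acid uptake and triglyceride synthesis 0 rose and 1 fell (median -0.19). That gene was Angptl4, a secreted inhibitor of Lpl and a target of PPAR receptors, with 32.8 and 33.9 CPM in DF508 and 58.9 CPM in WT (1.82-fold lower, adjusted p = 0.0224). The DF508 libraries were close together and both well below WT. Lpin1, the phosphatidate phosphatase, had 59.7 ± 5.43 CPM in DF508 and 80.4 CPM in WT (adjusted p = 0.142), and Lmf1, needed for Lpl folding, had 21.5 ± 1.06 CPM in DF508 and 25.1 CPM in WT (adjusted p = 0.669). Gpihbp1, which anchors Lpl to capillary walls, had 0 counts in every library.

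Angptl4 was also the single gene that fell among 11 tested PPAR targets, of which 0 rose (median -0.17, with DF508 replicates 1 and 2 alone -0.32 and -0.03). The mitochondrial acyl-CoA dehydrogenase Acadl had 48.1 ± 7.11 CPM in DF508 and 52.7 CPM in WT, and did not pass (adjusted p = 0.727).

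Among 6 tested genes of adipocyte products and receptors 0 rose and 1 fell (median -0.08). Apln, the secreted peptide apelin, had 21.9 and 25.2 CPM in DF508 and 45.1 CPM in WT (1.97-fold lower, adjusted p = 0.0333). The adiponectin receptor genes had counts in every library, although Adipoq had none. Adipor1 had 135 ± 5.22 CPM in DF508 and 139 CPM in WT, and Adipor2 82.2 ± 4.26 CPM in DF508 and 83.6 CPM in WT. Cdh13, the T-cadherin that binds adiponectin, had 29.6 and 39.6 CPM in DF508 and 18.3 CPM in WT, and did not pass (1.83-fold, adjusted p = 0.142).

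Of 10 tested glucocorticoid-induced genes, listed because Klf15 is one, 0 rose and 3 fell (median -0.06, with DF508 replicates 1 and 2 alone -0.17 and -0.01). Besides Cebpd these were Dusp1, a MAP kinase phosphatase, with 171 ± 14.5 CPM in DF508 and 328 CPM in WT (1.98-fold lower, adjusted p = 0.00813), and the kinase Sgk1, with 171 ± 21.8 CPM in DF508 and 264 CPM in WT (1.59-fold lower, adjusted p = 0.0429). Nfkbia, an inhibitor of NF-kB, had 68.2 ± 10.1 CPM in DF508 and 73.6 CPM in WT. Dusp1 and Sgk1 are serum-induced as well.

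Of 8 tested progenitor markers 0 rose and 1 fell (median -0.02, with DF508 replicates 1 and 2 alone -0.06 and 0.04). F3, the tissue factor gene, fell 1.68-fold (243 ± 25.6 CPM in DF508, 397 CPM in WT, adjusted p = 0.0211). Pdgfrb, a receptor of mesenchymal progenitors, had 431 ± 16.2 CPM in DF508 and 477 CPM in WT, and Ly6a, the stem cell antigen Sca-1, 188 ± 20.0 CPM in DF508 and 195 CPM in WT. Among the tendon markers Dcn, the proteoglycan decorin, rose 1.43-fold (adjusted p = 0.0417).

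**Figure D4:**
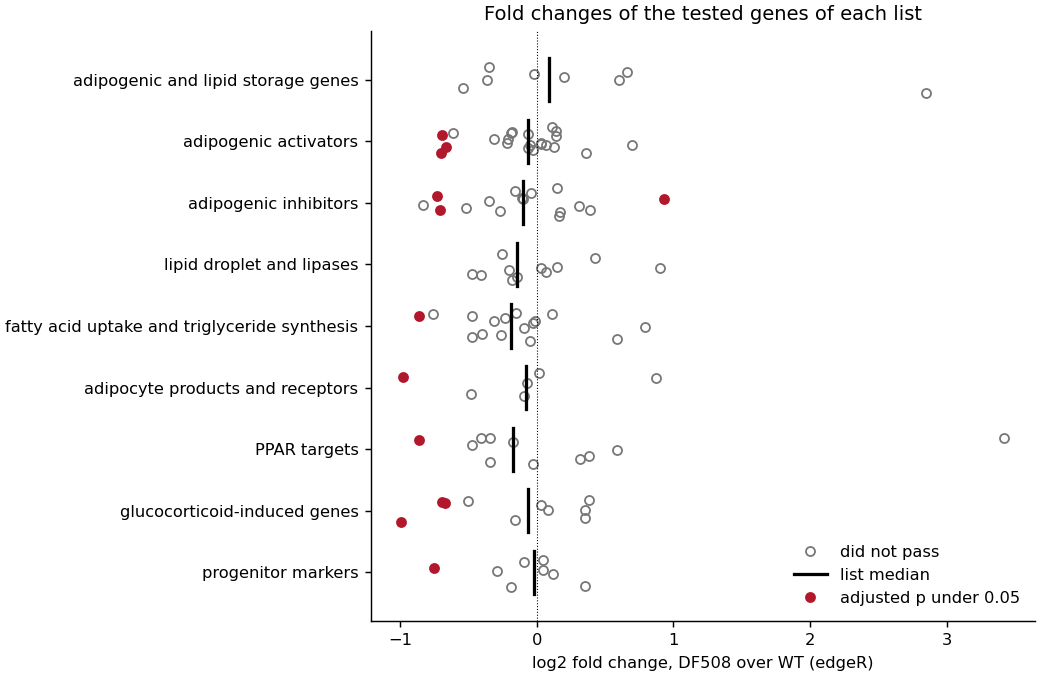
Fitted log2 fold change of DF508 over WT (x axis, edgeR) for every tested gene of the 9-gene set and of the 8 pathway lists (y axis). Filled points passed an adjusted p of 0.05, open points did not, and black bars are list medians; the 8 tested adipogenic and lipid storage genes hold no filled point, and the only filled point right of 0 is Dlk1, at 0.93.

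These calls rest on 1 WT library, assumed to vary like the DF508 pair, and on the model. Of the 12 list genes named as having passed, limma-voom called all 12 and DESeq2's Wald test 4 (Dlk1, Dusp1, F3 and Dcn). None was called by edgeR when libraries were scaled by their totals alone or low counts were kept, or by limma on FPKM, though each kept its direction.

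Among genes outside the lists that shared no reads and had a mean of at least 10 CPM (7392 genes), those with the pattern nearest to Pparg over the 3 libraries were Pyroxd2, Hells and Fam83d. Their distances were 0.0187, 0.0200 and 0.0415 on the log2(CPM + 0.5) scale (Euclidean distance after centring each gene). Nearest to Cebpa were Abraxas1, Nup85 and Pde12, at 0.000596, 0.000933 and 0.00302. With 3 libraries such likeness is common: 36 genes lay within 0.1 of Pparg and 865 within 0.1 of Cebpa.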

How the data were processed

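Poly(A) RNA-seq tables of 3 libraries, 2 DF508 and 1 WT, were used. Bowtie, RSEM and mm9 are named in the submitters' processing notes; their versions, the annotation release and the strand setting are not given. Per the file headers, the authors deposited for each gene an RSEM expected count, not normalized, an FPKM value scaled by the authors to length and library size, and the length used. Genes missing from a table were set to 0. A gene whose expected count was more than 0.005 from a whole number in some library was said to share reads.

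CPM is the expected count scaled to a library total of 1000000. For the test, expected counts were rounded, filtered with filterByExpr, TMM-normalized and fitted with edgeR's quasi-likelihood test with genotype as the sole term (1 residual degree of freedom); p-values were Benjamini-Hochberg adjusted over 12888 genes, with a threshold of 0.05. The SE is the log2 fold change over the square root of F. Fold changes of 1 DF508 library against WT are differences of log2(TMM-scaled CPM + 0.5), which understates changes of low genes. Ratio intervals are exact conditional binomial (Clopper-Pearson). The fits were tested on simulated data: fold changes were recovered, but the number of changed genes called varied widely between simulations and edgeR as used here called none in some, so a gene not called is not shown to be unchanged. Symbols and promoters came from RefSeq tables of GRCm38.p6.

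The genes and lists were chosen with earlier results of these data known. Named were the 9 genes, every list gene past the threshold, the 3 highest by mean FPKM of each list (some are not reported here), and the 3 nearest genes to Pparg and to Cebpa. Alternatives were DESeq2 size factors, library totals alone, all genes kept, only genes with mean counts of 50 or more, limma-voom, the Wald test of DESeq2, limma on log2(FPKM + 1) or log2(FPKM + 0.1) at a mean FPKM of at least 1 or unfiltered, and each DF508 library left out. Software was DESeq2 1.42.0, limma 3.58.1 and edgeR 4.0.16 under R 4.3.3.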

Additional observations from a re-analysis of the deposited data

How the results depend on the processing

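The 9 alternative models called 0 of the listed genes they gave an adjusted p, which were all 8 except for DESeq2's Wald test and a mean of at least 50 counts, where they were 5 (not Fabp4, Cd36 or Klf15), with 0 to 4 of them at an unadjusted p under 0.05. Over all genes the main count of 179 fell to 63 with DESeq2's Wald test and to 0 with library totals alone (1253 genes at an unadjusted p under 0.05), with no filter on low counts (1123), with limma on log2(FPKM + 1) (1145) or log2(FPKM + 0.1) (1159), and with limma on log2(FPKM + 1) without a filter (1615); the cause was not tested. Under library totals alone the log2 fold change of Lpl reversed to 0.02. The median over all genes tested then moved to 0.05, that of the activators to -0.01, of the droplet and lipase list to -0.10 and of adipocyte products and receptors to -0.04. Leaving out either DF508 library gave -0.05 to -0.03 for the activators and -0.12 to -0.09 for adipocyte products and receptors. Over all alternatives, each DF508 library left out included, the log2 fold change spanned 0.52 to 0.75 for Pparg, 0.48 to 0.66 for Zfp423 and 1.08 to 3.19 for Cd36. A count added after the data were seen, of genes above WT in every DF508 library, was 4, and 4 and 5 with replicate 1 and replicate 2 alone. No paired analysis was possible because the WT group holds 1 library. At 7 WT counts for Cd36, and 33 to 55 for Fabp4 and Klf15, depth limits what could be seen.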

Other observations

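Outside the rule for named genes, Ucp2 was singled out after its values were seen. It encodes a mitochondrial carrier, is a target of PPAR receptors, and is abundant in macrophages. It had 8.97 and 24.8 CPM in DF508 replicates 1 and 2 and 1.54 CPM in WT. Both DF508 libraries were above WT, by ratios of 5.94 (exact 95% interval 2.78 to 14.6) and 16.4 (8.09 to 38.8). The fitted log2 fold change of 3.42 ± 0.72 (SE) did not pass in edgeR's quasi-likelihood test (adjusted p = 0.0666). Replicate 2 was 2.76-fold above replicate 1 (1.97 to 3.94), within the range of the macrophage markers. The summed level of those markers was 1.57 times WT in replicate 1 and 7.2 times WT in replicate 2. Lyz2 was the largest part of that sum, with 85.3 and 404 CPM in DF508 and 59.3 CPM in WT. In both DF508 libraries the Ucp2 ratio was above that of every macrophage marker with counts in WT. In replicate 2, however, the Ucp2 interval overlapped the intervals of all these markers except Lyz2, Cd14 and Mrc1. In replicate 1 it overlapped those of Adgre1, Ctss, Fcer1g and Tyrobp, among others. The ranking therefore does not separate Ucp2 from the markers whose intervals overlapped. The part of macrophages in the Ucp2 level was not tested. Ucp2 also shares reads with another gene or copy.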
